A study of Mus musculus with 16 samples.

Results

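Mitosis and spindle genes, which encode the machinery that condenses, holds, moves and separates the chromosomes and then cleaves the cell, were followed over B cells and myeloma of mice that carry a transgene for the spliced form of the transcription factor XBP-1. The set was chosen by function, not by a measured value: 47 genes were asked for, and 46 of them were found among the 18193 genes that the arrays name. For the remaining gene, Ccnb1, no probe set was listed alone, and it was not analysed here. Each gene was read from 1 probe set, the one brightest on average over all 16 arrays, out of 108 probe sets in all, and 32 of the 46 genes have several. Of these genes, 8 (Top2a, Birc5, Ccnb2, Nek2, Aurka, Bub1, Cdk1 and Nuf2) were picked by the study on the same samples, so their direction is not independent evidence.

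In all, 3 groups were compared on Affymetrix 430 2.0 arrays, all on a C57BL/6 background. The first held B220+ splenic B cells, taken with magnetic beads from nontransgenic mice at 20 weeks of age (5 samples), and the second the same fraction from Eμ-xbp-1s mice of that age (5 samples). The third held 6 samples of Eμ-xbp-1s MM, the myeloma that arises in these mice later in life, whose ages are not given in the sources used here. The transgene carries the mouse xbp-1s cDNA, with eGFP behind an internal ribosome entry site, under an immunoglobulin VH promoter and the Eμ enhancer, which is active through B cell development and in some T cells. RNA of the third group came from myeloma tumors, and no sort of the tumor cells is described. Each B cell sample came from a mouse of its own, per the study. For the MM samples this is not stated, so the spread between them may in part be technical. In such bulk RNA, fewer cells of a type and less RNA per cell cannot be told apart.

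Entry into mitosis is driven by CDK1 bound to A- and B-type cyclins. Kinases of the Aurora, Polo and NIMA families then act on the centrosomes and chromosomes, kinetochores attach the chromosomes to spindle microtubules, and a checkpoint holds anaphase back until all are attached. The anaphase-promoting complex next marks securin and cyclin B for destruction, separase opens the cohesin rings, and motors and a contractile ring finish division. In resting B cells these genes are low, whereas germinal center B cells, plasmablasts and the precursors of red cells and granulocytes divide fast.

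The labels were checked on marker genes, given as the mean log2 intensity of a list on an array, with intensities under 50 set to 50. Mature B cell genes (8 of 10 listed were named) ran from 11.55 to 11.77 on nontransgenic, 10.09 to 11.37 on Eμ-xbp-1s B cell and 6.09 to 9.76 on MM arrays. Plasma cell genes (9 of 9) did not mark the MM samples out, at 7.29 to 9.18 against 8.51 to 8.78 on nontransgenic and 8.87 to 9.47 on Eμ-xbp-1s B cell arrays. Sdc1, which encodes CD138, lay at 110.3 to 263.5 in MM and at 140.7 to 245.6 in nontransgenic B cells. T cell genes (8 of 10) stood at 9.15 to 9.58 on all Eμ-xbp-1s B cell arrays and at 6.31 to 6.59 on nontransgenic ones. In MM they stood at 8.485 to 8.984 on replicates 1 to 3 and at 6.24 to 6.68 on replicates 4 to 6. Later neutrophil genes (7 of 8) stood at 9.16 to 11.21 on Eμ-xbp-1s B cell and at 6.10 to 6.95 on nontransgenic arrays. In MM they stood at 12.36 and 11.77 on replicates 4 and 5 and at 6.00 to 7.04 on the others. Stromal genes (8 of 8) stood at 8.62 to 10.05 on all MM arrays and at 5.82 to 6.07 on the B cell arrays. Erythroid genes (10 of 12) stood at 10.37 and 11.25 on MM replicates 4 and 5 and at 5.99 to 6.14 on the other MM arrays. The median intensity of an array lay between 69.0 and 82.9.

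At 20 weeks no mitosis or spindle gene passed the test between Eμ-xbp-1s and nontransgenic B cells, and every one of the 46 overlapped between these groups. The comparison asked whether B cell samples of transgenic mice show a mitotic program before myeloma arises. These groups also differ in T cell and later neutrophil genes (higher in Eμ-xbp-1s) and mature B cell genes (lower), so it does not isolate the transgene. A probe set counted as changed at a Benjamini-Hochberg adjusted p under 0.01 from limma, over all 20596 probe sets tested. Of the genes, 35 passed the filter on low values and could be called. None was called in either direction, where 2.75% of all probe sets tested were called higher and 0.481% lower (3.28% and 0.192% of all genes). At these shares few or no calls would fall among 35 genes, so the count does not set them apart. Their adjusted p lay between 0.073 and 0.979, and 2 had an unadjusted p under 0.05, against 12% of all genes higher and 6.98% lower. None reached an adjusted p under 0.05, as 5.75% of all genes did upward and 0.997% downward. The groups overlapped for all 46 genes, where 4.84% of all genes, with no filter, lay higher and 1.59% lower without overlap. The median log2 fold change over the 46 was 0.05, beside 0 over all genes with no filter. For 39 of 46 the 95% interval of the difference lay within 1 on either side of 0. These 39 include all 11 genes under the filter, where raising low intensities to a floor can narrow the interval. Cdc25c was at that floor on every B cell array, so its interval (-0.0021 to 0.0021) cannot show a difference. The intervals that reached past 1 were all of tested genes: Birc5, Kif22, Kif23, Cdca8, Incenp, Mki67 and Ube2c.

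The genes at an unadjusted p under 0.05, Kif23 and Hmmr, had differences of opposite sign. Kif23 read 73.7, 81.7, 127, 159 and 52.7 on nontransgenic B cell arrays 1 to 5, 155, 148, 260.2, 163 and 164 on Eμ-xbp-1s B cell arrays 1 to 5, and 53.2 (replicate 6) to 706 (replicate 5) with a median of 489 on the MM arrays. Kif23 encodes the kinesin MKLP1 of the central spindle. Its log2 fold change in Eμ-xbp-1s B cells was 0.93 ± 0.28 (SE, adjusted p = 0.073), and the groups overlapped, since nontransgenic array 4 lay among the Eμ-xbp-1s arrays. Hmmr, a microtubule-binding protein of the spindle poles, had -0.34 ± 0.15 (SE, adjusted p = 0.219) and overlapped as well. The Eμ-xbp-1s arrays with the highest member levels were array 3 for 20 genes and array 5 for 18. These also had the highest erythroid list, at 8.98 and 8.24 against 7.13 to 7.32. Other lists differed there too. Array 5 was highest of its group for granulocyte precursor genes (8.04 against 6.51 to 6.64) and later neutrophil genes (11.21 against 9.16 to 9.77). Array 3 was lowest for mature B cell genes (10.09 against 10.56 to 11.37). Among nontransgenic arrays, array 3 was highest for 28 genes and array 4 for 15, and the germinal center list (6 of 7 named) stood at 8.27 and 8.30 there against 7.04 to 7.43. Array 1, at 7.04, was the lowest for 33 genes. The part of these cells in the values was not tested.

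**Figure D1:**
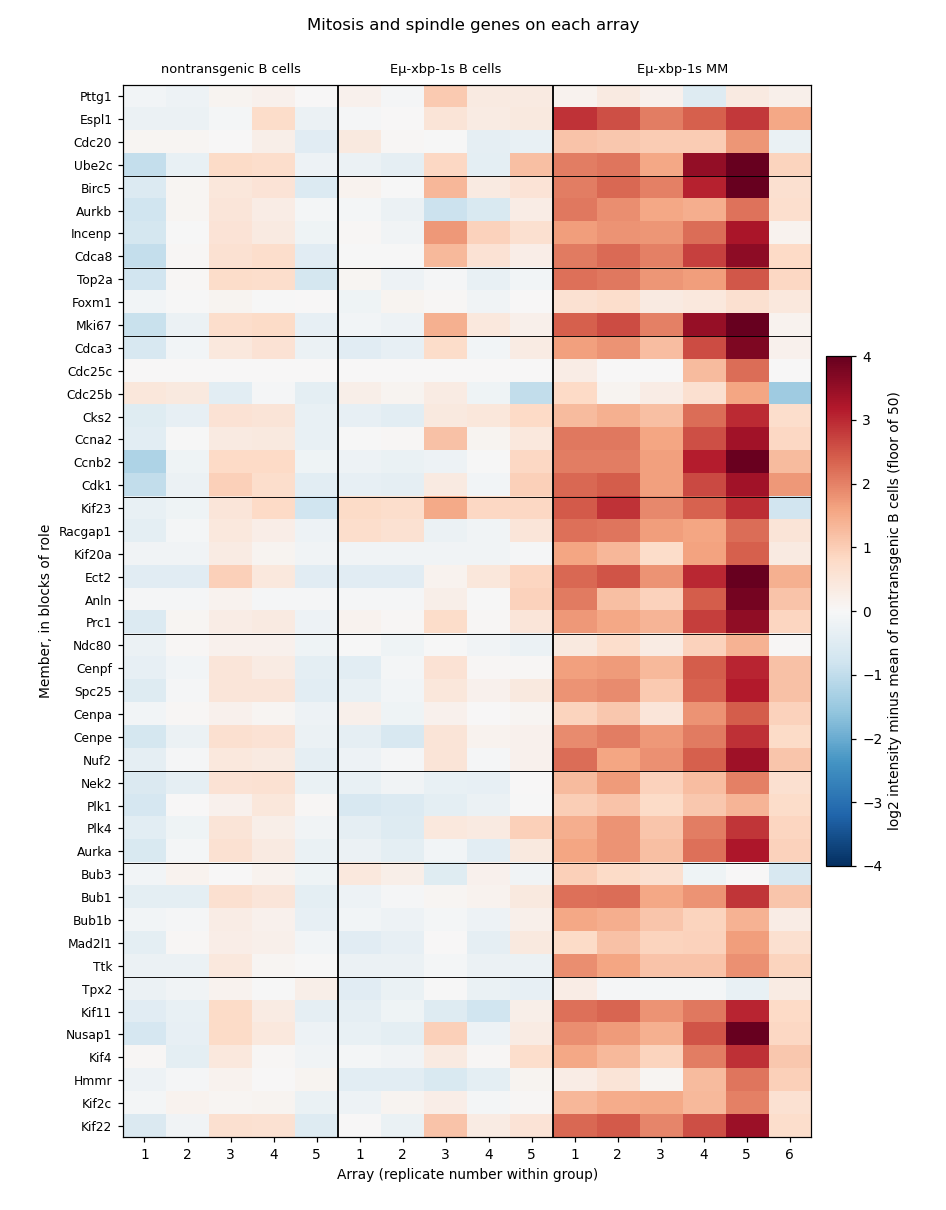
Log2 intensity of each of the 46 genes (rows, in blocks of role) on each of the 16 arrays (columns), minus the mean of the 5 nontransgenic B cell arrays, with intensities under 50 set to 50. Red is higher and blue lower. The MM columns are red in nearly every row, deepest on MM replicate 5 and palest on replicate 6, and the rows of Pttg1, Bub3 and Tpx2 stay pale.

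In Eμ-xbp-1s MM the mitosis and spindle genes were higher as a group than in either set of B cells. Against Eμ-xbp-1s B cells, 19 of the 46 genes rose and none fell, where 1.28% of all probe sets tested were called higher and 1.91% lower (1.49% and 1.67% of all genes). With no filter, 26 of 46 lay above every Eμ-xbp-1s B cell array on all 6 MM arrays, where 3.84% of all genes did, none lay below them on all 6 (2.87% of all genes), and the median log2 fold change was 1.65, beside 0 over all genes. A difference of over 2-fold was measured for 38 genes, whether past the test or not. Against nontransgenic B cells, 30 of 46 rose and none fell, where 3.95% of all probe sets were called higher and 5.65% lower (4.66% and 4.76% of all genes). There 34 of 46 lay above every nontransgenic array on all 6 MM arrays, where 6.27% of all genes did, none lay below (5.71% of all genes), and the median was 1.82. Some called genes passed the filter only through the MM arrays where they are high. No array of the lower group was over 100 for 5 over Eμ-xbp-1s B cells (Bub1, Ttk, Nek2, Nuf2 and Espl1). The same held for 6 over nontransgenic B cells (Ttk, Nuf2, Kif4, Kif20a, Anln and Espl1). Further genes had arrays of the lower group over 100, but too few for the filter. Over Eμ-xbp-1s B cells these were Kif11, Ect2, Cenpe, Cenpf, Aurka, Aurkb and Spc25. Over nontransgenic B cells they were Bub1, Ect2, Nek2, Spc25, Kif11, Cenpe and Cenpf. These comparisons share their MM arrays. Where a gene is given a pair of values below, both are log2 fold changes of MM, over Eμ-xbp-1s B cells first and over nontransgenic B cells after it. Of the genes the study picked, 7 of 8 rose over Eμ-xbp-1s B cells and 8 of 8 over nontransgenic B cells.

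The counts moved with single arrays and settings more than the sizes did. At an adjusted p under 0.05, 37 and 39 genes were higher, beside 4.76% and 9.81% of all genes, and over all 45037 probe sets with no filter 5 were called in each comparison, where 0.246% and 0.977% of all probe sets were higher. Against Eμ-xbp-1s B cells the count was 8, 9, 8 and 11 without Eμ-xbp-1s B cell array 1, 2, 4 and 5, was 10, 11 and 11 without MM replicate 1, 2 and 4, and 29 without MM replicate 6. A fit of all 3 groups gave 34, where 3.38% of all probe sets were called higher, and array weights 40, where 10% were, against 1.28% in the fit of these groups alone. Without single arrays this share ran from 0.446% (Eμ-xbp-1s B cell array 4) to 2.16% (MM replicate 6). Against nontransgenic B cells it was 11, 11, 19 and 11 without nontransgenic array 1, 2, 4 and 5, and 19 without MM replicate 4, where the share of all probe sets called higher was 1.91%, 2.05%, 2.07%, 1.95% and 2.87%, against 3.95%. The median log2 fold change over the genes tested stayed between 1.41 and 1.89, and between 1.55 and 2.03, whichever single array was left out.

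**Figure D2:**
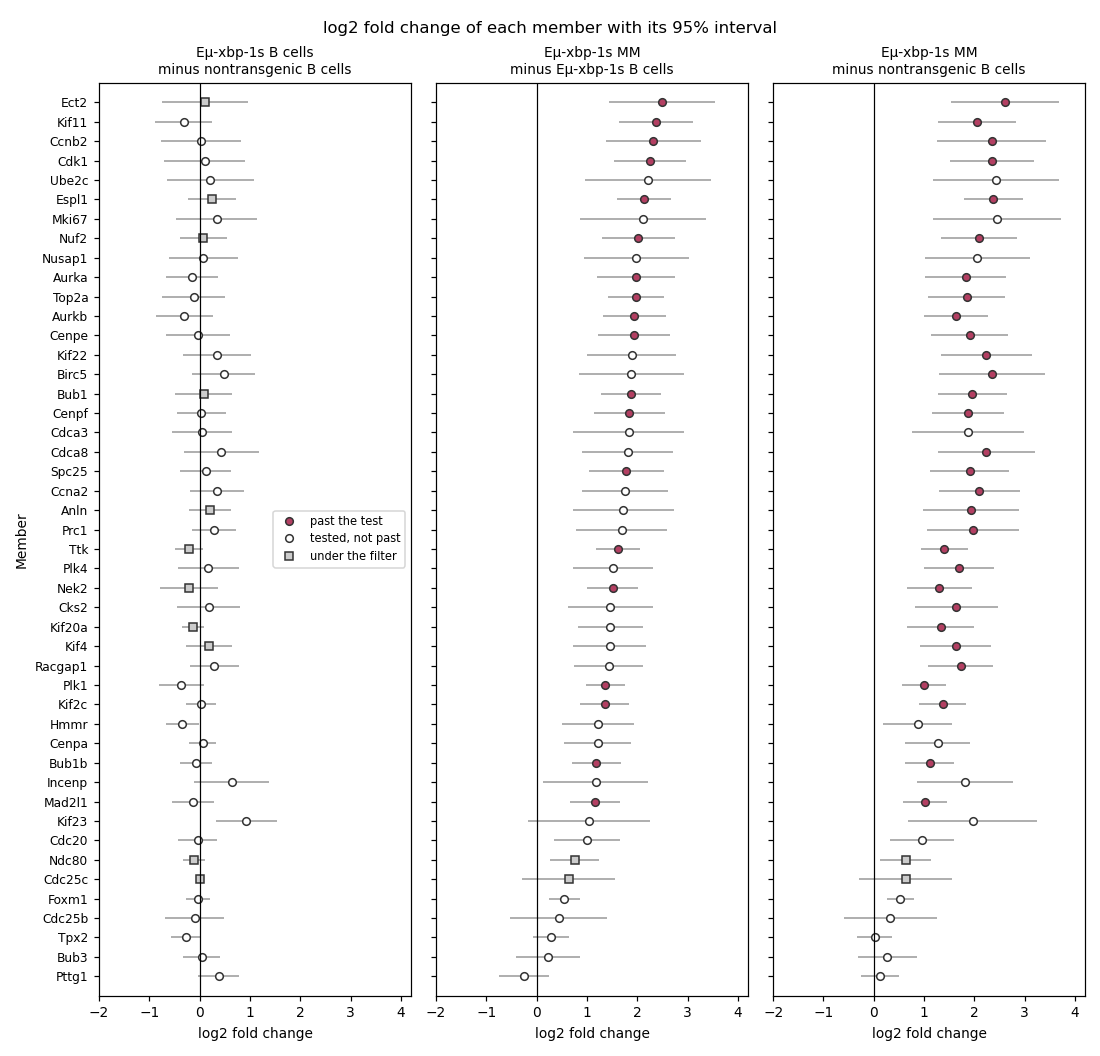
Log2 fold change (points) of each of the 46 genes with its 95% interval from limma (lines) in the 3 comparisons, ordered by the comparison of MM with Eμ-xbp-1s B cells. Filled points passed the test, open points did not and squares were under the filter on low values. The points of the first panel straddle 0, and those of the others run up to 2.49 and 2.60 (Ect2).

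Many mitotic genes share short promoter elements, the cell-cycle genes homology region (CHR), which complexes of the MuvB core bind, and CCAAT boxes, which the factor NF-Y binds. The 300 bases around the annotated start (250 before and 50 after, RefSeq, GRCm38.p6) were available for 39 of the 46 genes. The CHR letters TTTGAA, read on both strands, occurred in 28 of them (71.8%), where 20.2% of the 27025 promoters of all genes held them, and CCAAT in 30 (76.9%), against 41.1%. TTTGAA together with CCAAT occurred in 25 (64.1%), against 8.0%. The variant TTCGAA occurred in 4 (10.3%, against 1.8%) and TTTAAA in 9 (23.1%, against 14.9%). Of the 35 TTTGAA matches, 27 lay within 50 bases of the start, and in 25 genes one had a CCAAT upstream of it, at a median distance of 32 bases (range 9 to 153). TTTGAA occurred among genes not called in MM over nontransgenic B cells (9 of 12) and among those called (19 of 27). A match is a description of the letters, not a site.

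The 120 bases before the start are shown for 6 genes, with matches to the letters above in capitals on either strand (on the other strand TTTGAA is written TTCAAA and the box CCAAT is written ATTGG). Top2a (chr11:99024190-99024309), Cdk1 (chr10:69352913-69353032) and Ccnb2 (chr9:70421555-70421674), on the minus strand, and Kif11 (chr19:37376262-37376381), on the plus strand, rose in MM. Nuf2 (chr1:169531465-169531584, minus strand) rose and holds none of these letters in the window shown. Bub3 (chr7:131560250-131560369, plus strand) holds 1 TTTGAA and 2 CCAAT and did not pass the test.
Top2a: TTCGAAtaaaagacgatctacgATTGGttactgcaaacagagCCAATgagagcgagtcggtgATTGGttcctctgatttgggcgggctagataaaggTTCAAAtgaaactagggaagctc
Cdk1: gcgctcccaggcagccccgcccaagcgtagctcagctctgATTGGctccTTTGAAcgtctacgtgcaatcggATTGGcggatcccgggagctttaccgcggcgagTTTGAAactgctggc
Kif11: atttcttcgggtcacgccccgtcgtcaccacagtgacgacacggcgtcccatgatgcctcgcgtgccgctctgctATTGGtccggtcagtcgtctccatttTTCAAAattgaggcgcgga
Ccnb2: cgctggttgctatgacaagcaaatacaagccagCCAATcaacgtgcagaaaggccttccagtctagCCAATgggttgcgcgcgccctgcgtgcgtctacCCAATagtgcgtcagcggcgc
Nuf2: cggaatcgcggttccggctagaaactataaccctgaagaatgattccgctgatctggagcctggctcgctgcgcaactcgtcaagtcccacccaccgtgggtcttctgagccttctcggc
Bub3: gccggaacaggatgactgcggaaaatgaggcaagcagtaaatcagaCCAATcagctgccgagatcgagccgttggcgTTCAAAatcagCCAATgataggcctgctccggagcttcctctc
In Top2a and Cdk1 the TTTGAA nearest the start stands at 23 and 15 bases before it, with CCAAT 35 and 33 bases upstream of that. Kif11 has the same order, at 19 and 26 bases. Ccnb2 holds 3 CCAAT in this stretch, and its TTTGAA matches lie outside it. Bub3 has its TTTGAA at 43 bases before the start and a CCAAT 31 bases upstream.

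**Figure D3:**
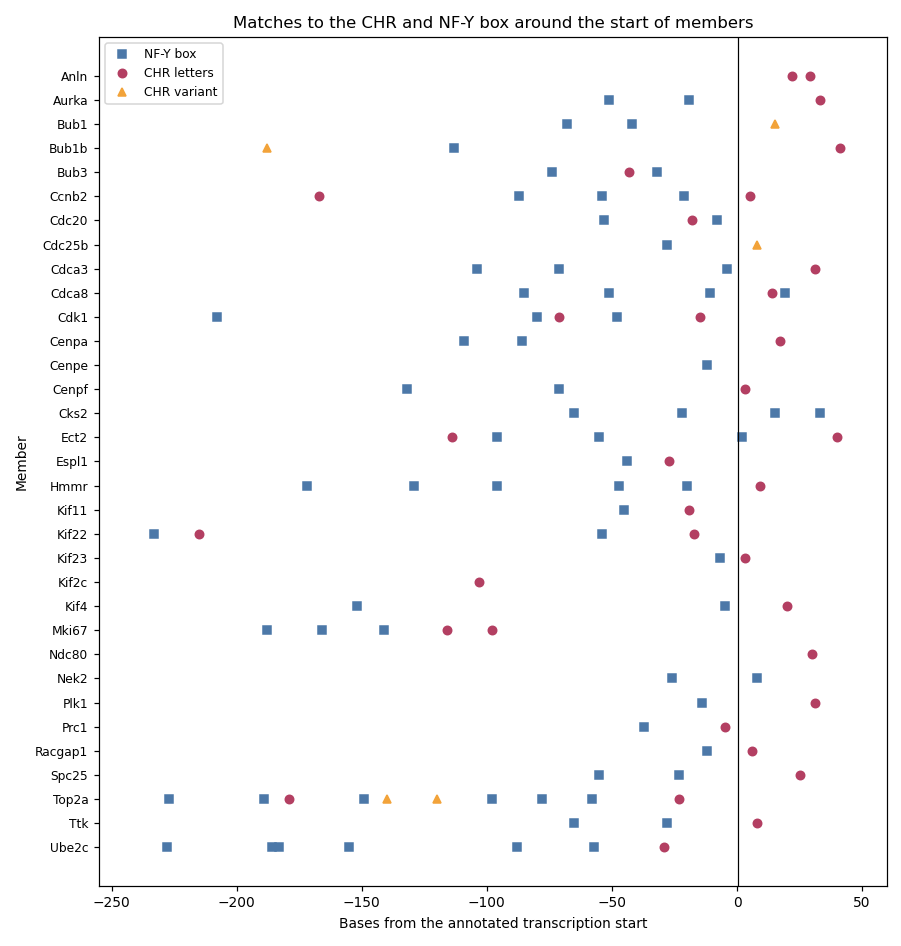
Position of each match, in bases from the annotated start (x axis, negative before it), in the 33 genes with any match to CHR letters, the CHR variant or the NF-Y box (CCAAT); each row is 1 gene. CHR letters gather within 50 bases of the start (27 of 35), with NF-Y boxes mostly to their left.

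Of 7 cyclins, CDK1 and its regulators, 2 rose over Eμ-xbp-1s B cells (Ccnb2 and Cdk1) and 4 over nontransgenic B cells (Ccna2, Ccnb2, Cdk1 and Cks2). Cdk1 read 97.3, 162, 376, 312 and 143 on nontransgenic B cell arrays 1 to 5, 154, 149, 244, 177 and 370.1 on Eμ-xbp-1s B cell arrays 1 to 5, and 598 (replicate 3) to 1996 (replicate 5) with a median of 993 on the MM arrays. Every MM array lay above every B cell array, so the groups did not overlap, and Cdk1, the kinase that starts mitosis, rose 4.77-fold over Eμ-xbp-1s B cells, or 2.26 ± 0.33 (SE, adjusted p = 0.00193) on the log2 scale, and 5.1-fold over nontransgenic B cells, 2.35 ± 0.39 (SE, adjusted p = 0.00148). Ccnb2 read 70.7, 148, 289, 293 and 150 on nontransgenic B cell arrays 1 to 5, 146, 141, 146, 165 and 296 on Eμ-xbp-1s B cell arrays 1 to 5, and 401 (replicate 6) to 2611 (replicate 5) with a median of 688 on the MM arrays. Ccnb2, which encodes cyclin B2, likewise did not overlap, and rose by 2.32 ± 0.43 (SE, adjusted p = 0.00689) and 2.34 ± 0.50 (SE, adjusted p = 0.00645), calls that were lost in 10 and 9 of 24 alternatives. Cks2 read 362, 404, 750.4, 724 and 412 on nontransgenic B cell arrays 1 to 5, 406, 375, 656, 696 and 868 on Eμ-xbp-1s B cell arrays 1 to 5, and 827 (replicate 6) to 4034 (replicate 5) with a median of 1281 on the MM arrays. Cks2, a small subunit of CDK complexes, overlapped with Eμ-xbp-1s B cells through array 5 and MM replicate 6, and had 1.47 ± 0.39 (SE, adjusted p = 0.0318) there and 1.64 ± 0.38 (SE, adjusted p = 0.00996) against nontransgenic B cells, a call lost in 16 of 24 alternatives (adjusted p up to 0.044). Ccna2 (cyclin A2) had 1.75 (adjusted p = 0.0153) and 2.10 (adjusted p = 0.00237). Cdca3, a trigger of mitotic entry, did not pass in either comparison, at 1.83 (adjusted p = 0.0395) and 1.87 (adjusted p = 0.0218). Cdc25b, a phosphatase that activates CDK1, had 0.43 (95% interval -0.52 to 1.39) and 0.33 (95% interval -0.59 to 1.25). Cdc25c, of the same family, under 50 on every B cell array and at 40.1 to 236.2 in MM, was under the filter.

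All 4 mitotic kinases of the Aurora, Polo and NIMA families rose over nontransgenic B cells and 3 over Eμ-xbp-1s B cells. Aurka read 72.7, 105, 168, 143 and 91.4 on nontransgenic B cell arrays 1 to 5, 93.3, 83.98, 102, 83.3 and 146 on Eμ-xbp-1s B cell arrays 1 to 5, and 212 (replicate 6) to 1035 (replicate 5) with a median of 358 on the MM arrays. Plk1 read 153, 247, 278, 335 and 251 on nontransgenic B cell arrays 1 to 5, 156, 168, 186, 209 and 245 on Eμ-xbp-1s B cell arrays 1 to 5, and 403 (replicate 6) to 622 (replicate 5) with a median of 501 on the MM arrays. Nek2 read 65.5, 76.1, 147, 148 and 80.6 on nontransgenic B cell arrays 1 to 5, 78.5, 89.2, 79.9, 77.9 and 98.4 on Eμ-xbp-1s B cell arrays 1 to 5, and 151 (replicate 6) to 394 (replicate 5) with a median of 233 on the MM arrays. For all 3 the MM arrays lay above every B cell array, with MM replicate 5 highest and replicate 6 lowest. Aurka, the Aurora kinase of the centrosome, rose by 1.98 ± 0.36 (SE, adjusted p = 0.00556) and 1.82 ± 0.37 (SE, adjusted p = 0.00527) on the log2 scale over Eμ-xbp-1s and nontransgenic B cells. Plk1, the Polo kinase of mitotic entry and chromosome separation, rose by 1.37 ± 0.18 (SE, adjusted p = 0.00105) and 1.00 ± 0.20 (SE, adjusted p = 0.00478). Nek2, a kinase of centrosome separation, rose by 1.51 ± 0.24 (SE, adjusted p = 0.00266) and 1.30 ± 0.29 (SE, adjusted p = 0.00874), and the last call was lost in 14 of 24 alternatives (adjusted p up to 0.0351). Over nontransgenic B cells that of Plk1 was lost in 10 and that of Aurka in 7, and over Eμ-xbp-1s B cells that of Aurka in 8. Plk4, the kinase of centriole duplication, had 1.52 (adjusted p = 0.021), with MM replicate 6 at 200.9 below Eμ-xbp-1s B cell array 5 at 210.7, and rose by 1.69 (adjusted p = 0.00359).

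Of the 4 genes of the chromosomal passenger complex, which corrects faulty attachments and guides cytokinesis, 1 rose over Eμ-xbp-1s B cells (Aurkb) and 3 over nontransgenic B cells (Aurkb, Birc5 and Cdca8). Birc5 read 131, 204, 266, 280.1 and 133 on nontransgenic B cell arrays 1 to 5, 214, 190.3, 483, 247 and 279 on Eμ-xbp-1s B cell arrays 1 to 5, and 301 (replicate 6) to 3060 (replicate 5) with a median of 876 on the MM arrays. MM replicate 6 and Eμ-xbp-1s B cell array 3 made these groups overlap. Birc5, which encodes survivin, had 1.88 ± 0.48 (SE, adjusted p = 0.0284) over Eμ-xbp-1s B cells, which did not pass, and rose by 2.35 ± 0.48 (SE, adjusted p = 0.00533) over nontransgenic B cells, 5.11-fold, a call lost in 8 of 24 alternatives. Aurkb, the Aurora kinase of the complex, rose by 1.94 ± 0.29 (SE, adjusted p = 0.00209) and 1.64 ± 0.29 (SE, adjusted p = 0.00255). Incenp, its scaffold, did not pass, at 1.17 (adjusted p = 0.14) and 1.81 (adjusted p = 0.0124). On Eμ-xbp-1s B cell array 3, Birc5, Incenp and Cdca8 (borealin) stood at 483, 630.3 and 452.7, above the other arrays of that group, and Aurkb at 59.2, below them.

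Of 5 spindle checkpoint genes, 4 rose over both sets of B cells and Bub3 did not pass in either. Bub1 read 48.2, 41.2, 101, 91.6 and 49.96 on nontransgenic B cell arrays 1 to 5, 57.03, 62.3, 69.1, 72.1 and 85.9 on Eμ-xbp-1s B cell arrays 1 to 5, and 139 (replicate 6) to 470 (replicate 5) with a median of 262 on the MM arrays. Bub3 read 1026, 1219, 1113, 1232 and 986 on nontransgenic B cell arrays 1 to 5, 1477, 1302, 802, 1253 and 1013 on Eμ-xbp-1s B cell arrays 1 to 5, and 711 (replicate 6) to 2173 (replicate 1) with a median of 1430 on the MM arrays. Bub1, the checkpoint kinase, did not overlap in either comparison, and Bub3, the adaptor that brings it to kinetochores, overlapped in both. Bub1 rose by 1.88 ± 0.28 (SE, adjusted p = 0.00193) and at least 1.96 ± 0.32 (SE, adjusted p = 0.00129), the last against nontransgenic arrays of which most were under 50. Bub3 had 0.22 ± 0.30 (SE, adjusted p = 0.671), interval -0.42 to 0.86, and 0.26 ± 0.27 (SE, adjusted p = 0.519), interval -0.32 to 0.85. MM replicates 1 to 3 lay at 1735 to 2173, above every B cell array, and replicates 4 to 6 at 710.7 to 1124. Bub1b (BubR1), Mad2l1 (Mad2) and Ttk (Mps1), the other checkpoint genes, rose by 1.19, 1.16 and at least 1.62 over Eμ-xbp-1s B cells and by 1.11, 1.02 and 1.40 over nontransgenic B cells.

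Of 6 kinetochore and centromere genes, 4 rose over Eμ-xbp-1s B cells (Nuf2, Spc25, Cenpe and Cenpf), 4 over nontransgenic B cells, and all 6 lay above every Eμ-xbp-1s B cell array on all MM arrays. Nuf2 read 45.97, 61.9, 86.9, 82.5 and 41.99 on nontransgenic B cell arrays 1 to 5, 56.1, 61.8, 91.2, 62.2 and 72.6 on Eμ-xbp-1s B cell arrays 1 to 5, and 139.7 (replicate 6) to 672 (replicate 5) with a median of 268 on the MM arrays. Cenpa read 241, 265, 291, 274 and 224 on nontransgenic B cell arrays 1 to 5, 296, 230.1, 288, 260.3 and 270.2 on Eμ-xbp-1s B cell arrays 1 to 5, and 358 (replicate 3) to 1381 (replicate 5) with a median of 515 on the MM arrays. Nuf2, a subunit of the NDC80 complex that grips the microtubule, rose by 2.02 ± 0.34 (SE, adjusted p = 0.00379) and 2.09 ± 0.35 (SE, adjusted p = 0.00153). Cenpa, the histone H3 variant of centromeres, had 1.21 ± 0.30 (SE, adjusted p = 0.0257) and 1.27 ± 0.30 (SE, adjusted p = 0.0109), past neither test, although the groups did not overlap. Spc25, of the same complex as Nuf2, rose by 1.78 and 1.90. Cenpe, a kinetochore motor, rose by 1.94 and 1.90, and Cenpf, which binds kinetochores in mitosis, by 1.84 and 1.88. Ndc80, which gives the complex its name, ran from 60.7 to 156.1 in MM and 46.1 to 67.1 on the B cell arrays and was under the filter.

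Of 7 spindle motors and microtubule-binding proteins, 2 rose over Eμ-xbp-1s B cells (Kif11 and Kif2c) and 4 over nontransgenic B cells (with Kif4 and Kif22). Kif11 read 63.6, 71.2, 147, 110.1 and 67.8 on nontransgenic B cell arrays 1 to 5, 68.04, 77.9, 61.1, 44.97 and 103 on Eμ-xbp-1s B cell arrays 1 to 5, and 151 (replicate 6) to 721 (replicate 5) with a median of 388 on the MM arrays. Hmmr read 399.8, 444, 513, 469 and 499 on nontransgenic B cell arrays 1 to 5, 346, 348, 306, 352 and 500.4 on Eμ-xbp-1s B cell arrays 1 to 5, and 484 (replicate 3) to 2038 (replicate 5) with a median of 783 on the MM arrays. The MM arrays of Kif11 all lay above the B cell arrays, and for Hmmr MM replicate 3 did not. Kif11, the motor Eg5 that pushes the spindle poles apart, rose 5.16-fold and 4.15-fold, by 2.37 ± 0.34 (SE, adjusted p = 0.00164) and 2.05 ± 0.36 (SE, adjusted p = 0.00204). Hmmr had 1.22 ± 0.33 (SE, adjusted p = 0.0347) and 0.87 ± 0.31 (SE, adjusted p = 0.0672). Kif2c, a kinesin that shortens microtubules, rose by 1.35 and 1.37 on its brightest probe set. Of its 4 tested probe sets, 1 passed over Eμ-xbp-1s B cells, where they ran from 0.10 to 1.35. Over nontransgenic B cells 2 of 4 passed, and they ran from 0.29 to 1.37. Kif4 and Kif22, kinesins that act on chromosome arms, rose by 1.63 and 2.24 over nontransgenic B cells, and Nusap1, a microtubule bundler, did not pass, at 1.98 and 2.06 (adjusted p = 0.0216 and 0.0104). Tpx2, the activator of Aurora A on the spindle, had 0.29 ± 0.17 (SE, adjusted p = 0.283) and 0.02 ± 0.16 (SE, adjusted p = 0.948) on its brightest probe set, with intervals of -0.07 to 0.65 and -0.32 to 0.36.

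Of 6 cytokinesis genes, 1 rose over Eμ-xbp-1s B cells (Ect2) and 5 over nontransgenic B cells (all but Kif23). Ect2 read 27.4, 48.3, 131, 90.7 and 43.4 on nontransgenic B cell arrays 1 to 5, 50.1, 35.9, 74.8, 92.6 and 125 on Eμ-xbp-1s B cell arrays 1 to 5, and 184 (replicate 6) to 1626 (replicate 5) with a median of 362 on the MM arrays. Racgap1 read 100.3, 125, 176, 158 and 116 on nontransgenic B cell arrays 1 to 5, 216, 203, 113, 121 and 185 on Eμ-xbp-1s B cell arrays 1 to 5, and 191 (replicate 6) to 620.2 (replicate 5) with a median of 501 on the MM arrays. For Ect2 no MM array lay among the B cell arrays. Ect2, the exchange factor that switches on RhoA at the cleavage plane, rose 5.63-fold over Eμ-xbp-1s B cells, by 2.49 ± 0.48 (SE, adjusted p = 0.00823), a call lost in 12 of 24 alternatives (adjusted p up to 0.0416), and at least 6.07-fold over nontransgenic B cells, by at least 2.60 ± 0.49 (SE, adjusted p = 0.00355), where most arrays were under 50. Racgap1, which binds Ect2 and the central spindle, had 1.43 ± 0.32 (SE, adjusted p = 0.0149) and 1.73 ± 0.30 (SE, adjusted p = 0.00196), with MM replicate 6 at 190.6 below Eμ-xbp-1s B cell arrays 1 and 2. Kif23 was at 53.2 on MM replicate 6 and at 343.3 to 706.4 on the others. Anln (anillin), Prc1, a bundler of antiparallel microtubules, and Kif20a, a kinesin of the midzone, rose over nontransgenic B cells by at least 1.93, 1.97 and 1.33.

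The genes of anaphase were not alike. Espl1 read 46.1, 49.2, 55.8, 96.7 and 30.6 on nontransgenic B cell arrays 1 to 5, 56.3, 59.5, 83.9, 72.5 and 77.1 on Eμ-xbp-1s B cell arrays 1 to 5, and 169 (replicate 6) to 432 (replicate 1) with a median of 328 on the MM arrays. Pttg1 read 969.9, 914, 1112, 1174 and 1058 on nontransgenic B cell arrays 1 to 5, 1165, 1004, 2157, 1334 and 1337 on Eμ-xbp-1s B cell arrays 1 to 5, and 724 (replicate 4) to 1345 (replicate 5) with a median of 1188 on the MM arrays. Espl1 had no overlap between MM and B cells, and Pttg1 overlapped in both comparisons. Espl1, which encodes separase, the protease that opens cohesin, rose 4.39-fold over Eμ-xbp-1s B cells, by 2.13 ± 0.25 (SE, adjusted p = 0.000589), and at least 5.2-fold over nontransgenic B cells, by at least 2.38 ± 0.27 (SE, adjusted p = 0.000119). Pttg1, which encodes securin, the inhibitor of separase, had -0.25 ± 0.23 (SE, adjusted p = 0.512), interval -0.75 to 0.24, and 0.12 ± 0.17 (SE, adjusted p = 0.655), interval -0.26 to 0.50, and with the mean of its probe sets the last was -0.02. Its direction over Eμ-xbp-1s B cells turned to 0.13 with array weights. Cdc20 and Ube2c, the activator and the ubiquitin-conjugating enzyme of the anaphase-promoting complex, did not pass, with 1.00 and 0.95 (adjusted p = 0.0549 and 0.0366) and with 2.22 and 2.43 (adjusted p = 0.0301 and 0.0112). Ube2c ran from 340.9 to 4040 over the MM arrays.

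Among genes of chromosomes and transcription, Top2a rose in both comparisons. Top2a read 260, 457, 733, 719 and 272 on nontransgenic B cell arrays 1 to 5, 466, 385, 424, 358 and 409 on Eμ-xbp-1s B cell arrays 1 to 5, and 791 (replicate 6) to 2452 (replicate 5) with a median of 1724 on the MM arrays. Mki67 read 221, 352, 663, 700.3 and 324 on nontransgenic B cell arrays 1 to 5, 377, 355, 1100, 549.6 and 473 on Eμ-xbp-1s B cell arrays 1 to 5, and 451 (replicate 6) to 6699 (replicate 5) with a median of 2337 on the MM arrays. The MM arrays of Top2a all lay above the B cell arrays, and those of Mki67 did so but for replicate 6. Top2a, the topoisomerase that untangles sister chromatids, stood at 488 ± 230.4 in nontransgenic, 409 ± 40.7 in Eμ-xbp-1s B cells (SD, n = 5 each) and 1686 ± 578 in MM (SD, n = 6). It rose 3.9-fold and 3.59-fold, by 1.97 ± 0.26 (SE, adjusted p = 0.00105) and 1.84 ± 0.35 (SE, adjusted p = 0.00354). Mki67, which encodes the proliferation marker Ki-67, had 2.11 ± 0.58 (SE, adjusted p = 0.0372) and 2.45 ± 0.59 (SE, adjusted p = 0.0117), past neither test. Foxm1, a transcription factor of G2 genes, lay at 197.6 to 249.7 in MM and 137.6 to 167.2 on the B cell arrays with no overlap, a difference of 0.55 (adjusted p = 0.0294) and 0.52 (adjusted p = 0.0111).

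**Figure D4:**
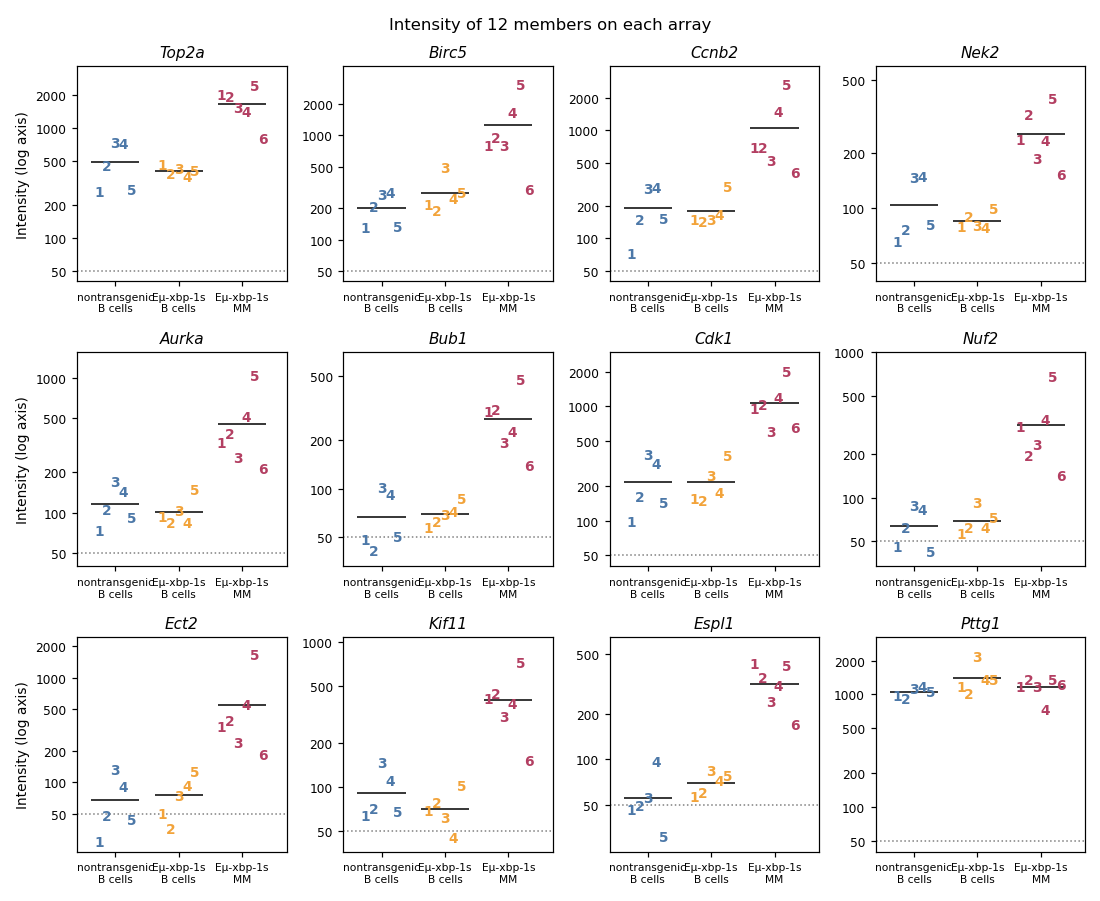
Intensity (log axis) of 12 of the genes on each array; digits are arrays, numbered by replicate, with a black bar at the mean of each group and a dotted line at the floor of 50. In Top2a, Kif11 and Espl1 every MM digit lies above every B cell digit, and in Pttg1 the groups overlap.

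The MM samples differed among themselves, and most of these genes ranked them in the same way. The median over the 46 genes of the log2 difference from the nontransgenic mean was 1.71, 1.71, 1.27, 2.06, 2.89 and 0.75 on MM replicates 1 to 6, and -0.41 to 0.43 on nontransgenic and -0.16 to 0.30 on Eμ-xbp-1s B cell arrays. Replicate 5 was the highest MM array for 40 of 46 genes, replicate 4 the second for 27, and replicate 6 the lowest for 36. On replicate 6, 37 of 46 genes lay above every nontransgenic array, and on replicates 1 to 5 between 42 and 45 did. Where 5 of the 6 MM arrays lay above every Eμ-xbp-1s B cell array (15 genes), the remaining one was replicate 6 for 13 and replicate 3 for 2.

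Marker lists of fast-dividing cells differed between the same arrays. Erythroid genes were above 100 in 10 of 10 on MM replicates 4 and 5, with summed intensities of 21120 and 33600, against 588.8 to 694.4 on the other MM arrays, 1859 to 10670 on Eμ-xbp-1s and 682.1 to 1052 on nontransgenic B cell arrays. Granulocyte precursor genes (6 of 6) had a mean log2 of 10.93 and 9.50 on MM replicates 4 and 5 and 6.34 to 6.84 on the others. They stood at 6.51 to 8.04 on Eμ-xbp-1s B cell and 6.39 to 6.44 on nontransgenic arrays. Germinal center genes (6 of 7) stood at 10.10, 9.53 and 9.27 on MM replicates 1 to 3 and at 6.94, 6.66 and 6.62 on replicates 4 to 6. On replicate 6, where the median over the 46 genes was 0.75, the erythroid, granulocyte precursor and germinal center lists stood at 6.11, 6.84 and 6.62. No marker was listed at 0, since the lowest value of the table is 1. Without MM replicates 4 and 5, 16 genes rose over Eμ-xbp-1s B cells and 24 over nontransgenic B cells, where 1.22% and 4% of all probe sets did, with medians of 1.30 and 1.38 over the genes tested. The part of these cells in the values was not tested.

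**Figure D5:**
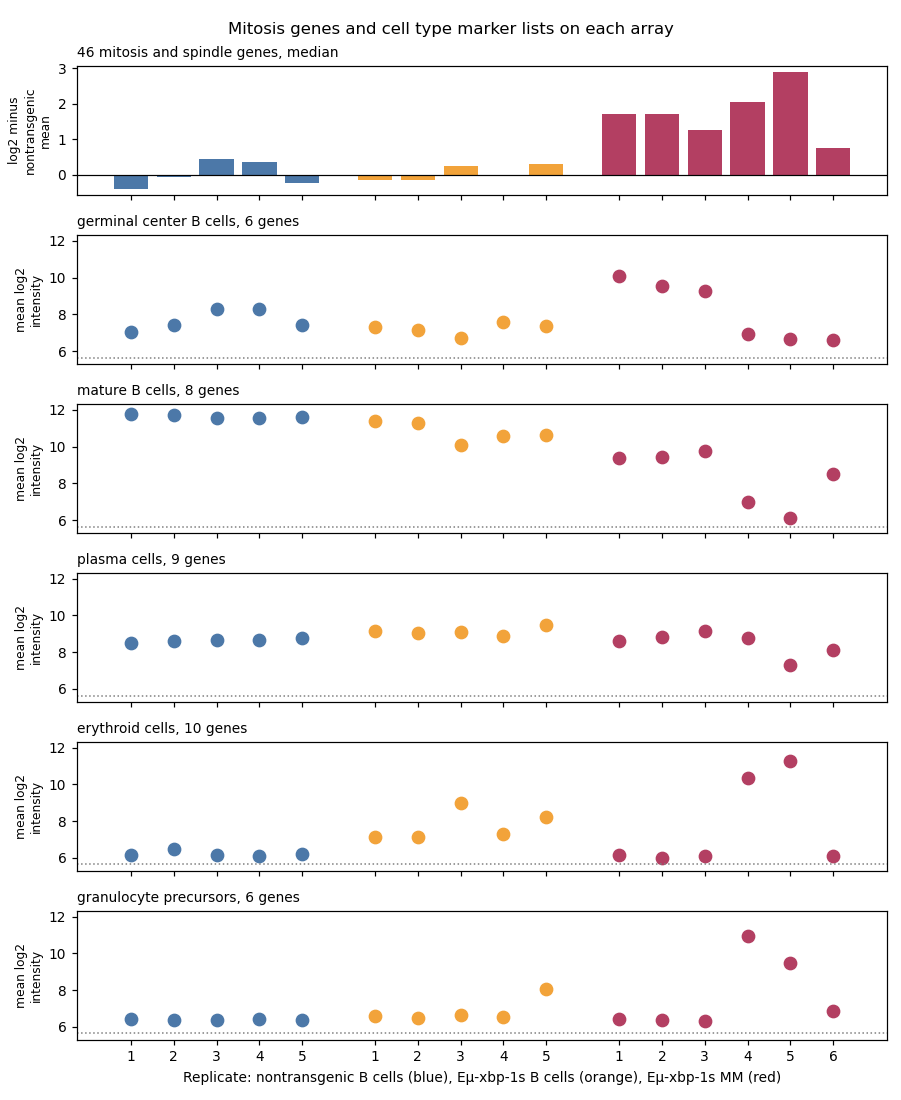
Top panel: median over the 46 genes of the log2 difference from the nontransgenic mean (bars) on each array. Lower panels: mean log2 intensity of 5 cell type marker lists on each array (points; dotted line, floor of 50). MM replicates 4 and 5 are highest in the top panel (2.06 and 2.89) and stand at 10.37 and 11.25 for erythroid genes, where the other MM arrays stand at 5.99 to 6.14.

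Of 88 further mitosis genes outside the set, limma called none between the B cell groups (68 tested), where 3.28% of all genes were called higher and 0.192% lower. Over Eμ-xbp-1s B cells, 9 rose in MM and none fell (82 tested), where 1.49% of all genes were called higher and 1.67% lower. Over nontransgenic B cells 18 rose and none fell (82 tested), where 4.66% and 4.76% of all genes were. The median log2 fold changes over the 88 were 0.51 and 0.47, beside 0 over all genes with no filter. Ncapg, a subunit of condensin I, rose by 2.68 ± 0.41 (SE, adjusted p = 0.00224) and 2.60 ± 0.43 (SE, adjusted p = 0.00157), and Pbk, a mitotic kinase, by 2.10 ± 0.30 (SE, adjusted p = 0.00158) and 2.36 ± 0.27 (SE, adjusted p = 0.000125). Spc24, the partner of Spc25, rose by 1.72 and 1.87, and Knl1, the kinetochore scaffold that BUB1 binds, by 1.21 and 1.31. Condensins had medians of 1.23 and 1.37 over 8 genes. Cohesin (8 genes) and the anaphase-promoting complex (15 genes) had medians of -0.14 and -0.16 and of -0.04 and -0.02, with none called in either comparison.

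Probe sets of a gene did not always give the same call. In the comparison with Eμ-xbp-1s B cells 29 of the 83 tested probe sets of these genes passed, where 1.28% of all probe sets were called higher and 1.91% lower. Of 44 genes, 11 had both calls and 6 passed on another probe set only, so 25 passed on any. Against nontransgenic B cells 48 of 83 passed, where 3.95% of all probe sets were called higher and 5.65% lower. There 11 genes were mixed, 5 passed on another probe set only and 35 on any. Tpx2 was one of them: of its 4 probe sets, 1 had 1.12 (adjusted p = 0.00859) and 1.12 (adjusted p = 0.00343), and another had 1.85 (adjusted p = 0.0127) and 1.69 (adjusted p = 0.0103), where the brightest had 0.29 and 0.02. Foxm1 passed on another probe set, at 1.25 and 1.09, and Cdc20 likewise, at 1.49 and 1.46. Hmmr passed on 1 of its other probe sets, at 1.88 and 1.67. Over Eμ-xbp-1s B cells Cdca8 passed on 2 other probe sets, at 1.49 and 2.5, and Plk4 on 1, at 1.555. The 3 tested probe sets of Pttg1 had -0.30 to -0.12 and -0.14 to 0.12, and those of Bub3 0.22 to 0.66 and 0.15 to 0.29, with none past the test.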

How the data were processed

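Total RNA of 16 samples was read on Affymetrix 430 2.0 arrays. The deposited values are intensities, 1 for each of 45101 probe sets and each array. Per the study's methods, the authors scaled the arrays to a baseline array of median brightness in dChip and took model-based expression from perfect match minus mismatch probes; the presence calls and the variation filter of the methods were not used here. Model-based subtraction makes low intensities uncertain, so values under 50 were set to 50 before log2. After 64 control probe sets were left out, a probe set was tested where it exceeded 100 on more than 20% of the arrays of the 2 groups compared. Each pair of groups was fitted on its own in limma 3.58.1 (R 4.3.3), with Benjamini-Hochberg adjustment over all probe sets tested and a threshold of 0.01. Fold changes are on this floored log2 scale, which understates those of dim genes. "At least" marks a fold change where the median array of the lower group was at the floor.

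Gene names came from the platform annotation: 34958 probe sets list 1 gene (34754 matched by gene ID) and 932 several, which were not named. Described with the value on each B cell array, and the lowest, median and highest MM value, were the 8 genes the study picked, the 4 largest changes past the threshold in each direction of each comparison, and the brightest gene of each role. The members and all gene lists were chosen with earlier results of these data known. The number of arrays limits the precision. The fits were checked on data with known changes. Replicate numbers are shared by the labels of the groups. Deviations from the group means correlated at 0.512, 0.527, 0.218, 0.176 and 0.512 between B cell arrays of both genotypes with the same number. The tests reported here have no pairing term. A block on the number, tried as an alternative, changed no call of a member between the B cell groups. Alternatives tried were other floors, a pseudocount, no filter, quantile or median scaling, other variance models, array weights, 1 fit of all groups, averaging all probe sets of a gene, and leaving out arrays. Promoters were taken from RefSeq (GRCm38.p6). Tables were handled in Python 3.11.15 with pandas 2.3.3.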

Additional observations from a re-analysis of the deposited data

Results flagged for a closer look

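Each of the 46 genes was examined for an array far from the others of its group by Dixon's criterion, which flags about 1 in 20 groups by chance, and 6 of 129 groups tested were marked. In Eμ-xbp-1s B cells, array 5 read 296 for Ccnb2 against 140.7 to 164.5 on the others, 96.96 for Anln against 39.74 to 60.35, and 500.4 for Hmmr against 306.3 to 352.2. Array 3 of the same group read 260.2 for Kif23 against 147.7 to 163.9. In MM, replicate 6 read 53.2 for Kif23, where the other MM arrays read 343.3 to 706.4, and replicate 4 read 724.4 for Pttg1, where the others read 1153 to 1345.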

How the results depend on the processing

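No gene of the set fell past the test in any comparison or alternative, and none was called between the B cell groups in any alternative. The number called higher in MM over Eμ-xbp-1s B cells was 5 with no filter, where 0.246% of all probe sets were. It was 37 at an adjusted p under 0.05, where 4.32% were. With all 3 groups in 1 fit it was 34 and with array weights 40, where 3.38% and 10% were. It ran from 8 to 29 when single arrays were left out, where the share of all probe sets ran from 0.446% to 2.16%. Over nontransgenic B cells it was 5 with no filter, where 0.977% of all probe sets were called higher. There it ran from 11 to 38 when single arrays were left out, where the share of all probe sets ran from 1.91% to 6.23%. The cause of these moves was not tested. Pttg1 changed sign without passing the test: 0.13 (adjusted p = 0.533) over Eμ-xbp-1s B cells with array weights and -0.023 (adjusted p = 0.946) over nontransgenic B cells with the mean of its probe sets.

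For the genes given by array, 389 values over Eμ-xbp-1s B cells kept their direction and side of the threshold, 44 no longer passed and 22 newly passed. Over nontransgenic B cells the numbers were 363, 78 and 14. Replicate numbers of MM and B cell arrays share only a number, since same-numbered deviations correlated from -0.284 to 0.442 and from -0.26 to 0.324, where a pair required over 0.1 throughout. Between the B cell groups all same-numbered deviations correlated over 0.1, at 0.176 to 0.527. In no comparison, the B cell groups included, did every array correlate best with its own number. With a replicate block 21 and 31 genes were called higher in MM, where 1.11% and 4.12% of all probe sets were. Between the B cell groups 0 were called with the block, where 3.16% of all probe sets were higher and 0.772% lower. Signal close to background limits Cdc25c and Ndc80, which were under the filter.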

Other observations

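On Eμ-xbp-1s B cell array 3, the brightest probe set of Incenp, the scaffold of the chromosomal passenger complex, read 630.3 where the other arrays of the group read 170.4 to 360.6, and Mki67 read 1100 where they read 355 to 549.6. Aurkb, the kinase of the same complex, read 59.19 there, the lowest of the group, and Bub3 801.7, also the lowest. None of these values met the criterion used for arrays far from their group.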
